A study of Homo sapiens with 60 samples.

Results

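The 9 genes described here encode solute carriers that move neutral and cationic amino acids across the plasma membrane, followed in A549 cells treated with herbal extracts. They were taken by name (SLC1A4, SLC1A5, SLC7A5, SLC3A2, SLC7A1, SLC38A1, SLC38A2, SLC6A9 and SLC43A1), and all 9 of 9 were found among the 60675 gene identifiers of the deposited table and passed the filter on low counts. The 9 genes (the members) and the other gene lists were chosen with earlier results of these data known. Counts of them called are therefore descriptions and not independent support. A549 cells descend from a human lung adenocarcinoma and grow attached to the dish. Messenger RNA was sequenced 24 h after treatment in 60 libraries of 25 groups. The groups are a DMSO vehicle (3 libraries) and 8 extracts, each at a low (20 µg/mL), a medium (100 µg/mL) and a high dose (500 µg/mL). Ethanol extracts of Glycyrrhizae Radix (licorice root), Panax Ginseng, Poria Cocos and Atractylodis Rhizoma and the water extract of the formula Sibjeondaebo-tang had 3 libraries per dose, and the water extract of the formula Palmul-tang had 2. Ethanol extracts of Angelicae Gigantis Radix and Paeoniae Radix had 1 library per dose and were not tested. The library labels give 0.1% DMSO for the vehicle and the series' design text gives 2%, and that text also mentions lower doses for extracts with an IC20 under 500 µg/mL, while the library labels give the same 3 doses for every extract. Whether replicate libraries stem from separate cultures is not stated in the labels, and the p-values therefore cover only the spread among these libraries, which may be technical.

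Cells cannot make the essential amino acids and take them up through carriers that exchange 1 amino acid for another or couple uptake to sodium. SLC7A5 (LAT1) and its chaperone subunit SLC3A2 (4F2hc, CD98) form the heterodimer that brings in leucine and other large neutral amino acids, and SLC1A5 (ASCT2) and SLC38A1 and SLC38A2 (SNAT1 and SNAT2) supply glutamine that such exchangers can trade. When amino acids run short or the endoplasmic reticulum is stressed, phosphorylation of the initiation factor eIF2α favours translation of the transcription factor ATF4, which with C/EBP partners binds a composite element in many transporter and amino acid synthesis genes. Leucine and arginine that enter the cell are in turn sensed by the kinase complex mTORC1.

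The sequences below show where the letters of 2 regulatory motifs lie at the members' start sites, since 8 of the 9 members rose at the same dose of 1 extract. They come from RefSeq (GRCh38.p14) windows of 250 bases before to 50 bases after each annotated start, with 16 windows for the 9 genes. The composite C/EBP-ATF element was searched as TGATGNAAN on both strands and was found in 5 of 9 members, against 4.45% of 27305 genes with such a window (3.61% of 35116 windows). Among the other amino acid transporters listed below it was in 1 of 18, and among the amino acid response genes in 5 of 17. A gene with more windows has more places for a match, and the members have 16 windows for 9 genes. The share of the members' windows with a match was not counted. Each line gives 30 bases read along the gene's strand, with the motif in capitals. For SLC1A4 and SLC3A2 the match is on the opposite strand. Positions are relative to the start of the window that holds the match. For SLC1A4, SLC3A2, SLC38A1 and SLC1A5 this start lies inside the gene as given by GENCODE 29, not at its outer end. For SLC1A4, SLC3A2, SLC7A1 and SLC1A5 the 30 bases touch an annotated exon.
SLC1A4 (chr2:64989381-64989410, plus strand, motif from -8 of the start): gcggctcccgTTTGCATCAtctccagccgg
SLC3A2 (chr11:62881719-62881748, plus strand, motif from 37): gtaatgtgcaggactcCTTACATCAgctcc
SLC38A1 (chr12:46266501-46266530, minus strand, motif from -4): cagacccgaaTGATGAAAAgggatcagcta
SLC7A1 (chr13:29595662-29595691, minus strand, motif from 8): ggcgcactgcTGATGAAACctggcgccgga
SLC1A5 (chr19:46784892-46784921, minus strand, motif from -97): aggaagtggcTGATGCAAGctgtccagggt

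The E-box CACGTG, the letters bound by MYC and related helix-loop-helix factors, reads the same on both strands and does not overlap the first motif in these windows. It was in 3 of 9 members, against 8.78% of 27305 genes (7.26% of windows), and is shown for 2 of them. Among the other amino acid transporters it was in 5 of 18, and among the amino acid response genes in 2 of 17. The number of windows per gene bears on these shares as well.
SLC7A5 (chr16:87869618-87869647, minus strand, motif from -130): ccggacgacgCACGTGctccgagctgggcc
SLC43A1 (chr11:57515795-57515824, minus strand, motif from -112): gcgggcgagtCACGTGcgcgtgaaactcga

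The 250 bases before the start of SLC7A5, the most abundant member, are shown whole, with the E-box in capitals (chr16:87869508-87869757, minus strand).
SLC7A5 upstream: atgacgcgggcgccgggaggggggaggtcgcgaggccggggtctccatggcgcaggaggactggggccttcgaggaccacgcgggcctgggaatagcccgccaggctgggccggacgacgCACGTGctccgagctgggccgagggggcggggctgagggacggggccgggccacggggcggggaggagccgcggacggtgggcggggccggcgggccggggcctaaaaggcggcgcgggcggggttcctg
G and C make up 79.6% of this stretch. A match to these letters describes the sequence and is not a measured binding site. SLC38A2 and SLC6A9 held neither motif in their windows.

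Libraries had 18602484 to 29764358 counts, and 17765 genes passed the filter and were tested. Low-dose Poria replicate 3 had 27991 genes above 0, and the other libraries had 21679 to 23442. That library is part of the base of the Poria changes from low dose. Mitochondrial genes took 14.5 to 25.9% of the counts, most in the low- and high-dose Paeoniae libraries (25.9% and 24.3%). Of the epithelial and A549 markers (EPCAM, KRT8, KRT18, KRT19, CDH1, CLDN4, AKR1B10, ALDH3A1, ALDH1A1, NQO1), all 10 were present in every library. Of 12 markers of other cell types, PTPRC, CD3E, VWF and CDH5 were at 0 in 50 to 54 libraries, while CD68 (median 21.1 CPM), COL3A1 (7.96), DCN (4.64), COL1A1 (2.15) and PECAM1 (0.265) were at 0 in none. In what follows a level is given as CPM, which puts each count on a common library total after TMM adjustment, and a change is a log2 change ± SE from edgeR's quasi-likelihood test, called at a Benjamini-Hochberg adjusted p under 0.05 over all genes tested.

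The members differed widely in level. Per kilobase of exon, where levels of different genes can be compared, SLC7A5 was highest in the vehicle libraries at 257 ± 7.91 CPM per kb (mean ± SD, n = 3). SLC1A5 followed at 84.9 ± 3.75 and SLC3A2, the partner subunit of SLC7A5, at 64.0 ± 1.82 CPM per kb. The sodium-coupled carriers SLC38A2 and SLC38A1 stood at 31.8 ± 1.67 and 21.5 ± 0.857 CPM per kb. The cationic carrier SLC7A1 (CAT1) stood at 7.14 ± 0.221 CPM per kb. SLC6A9 (the glycine carrier GlyT1, 1.35 ± 0.0967), SLC43A1 (the leucine carrier LAT3, 1.07 ± 0.0730) and SLC1A4 (the alanine, serine and cysteine carrier ASCT1, 0.868 ± 0.0995) were the lowest. No 2 neighbours in this order overlapped in the vehicle libraries. At low Glycyrrhizae dose SLC43A1 (1.07 to 1.23 CPM per kb) overlapped SLC6A9, whose lowest library read 1.09. These 3 low members had few counts, from 56 to 370 per library for SLC43A1 and from 99 to 894 for SLC1A4, so their values outside the highest groups are the least precise of the 9.

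**Figure D1:**
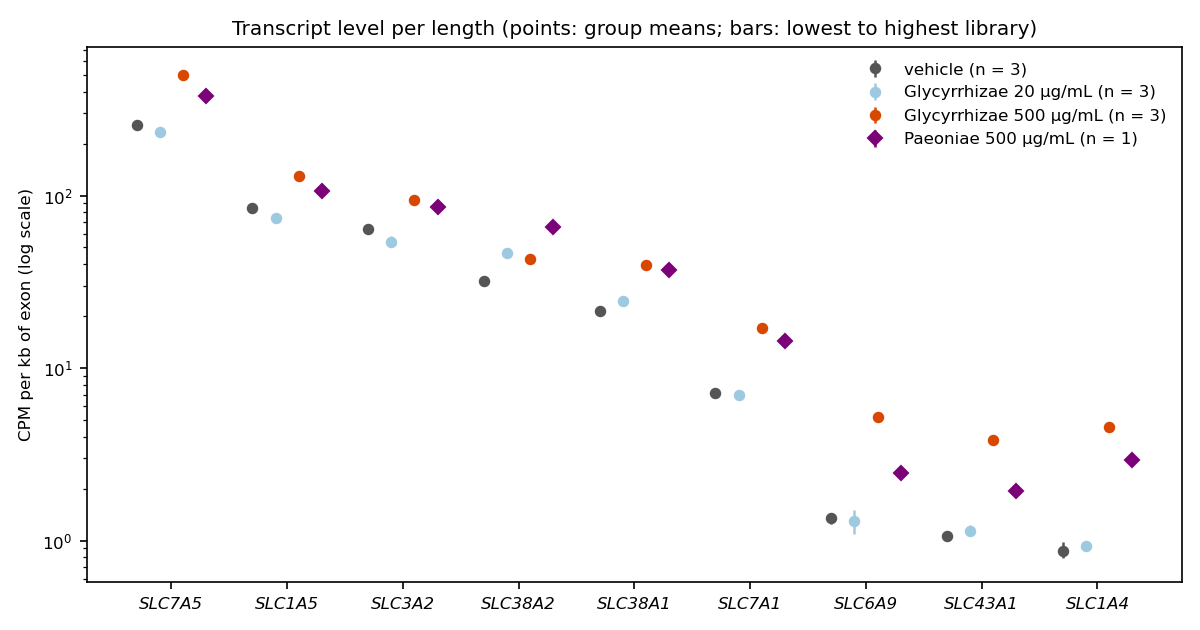
Transcript level of each gene in CPM per kilobase of exon (log axis) in the vehicle, low- and high-dose Glycyrrhizae and high-dose Paeoniae libraries; points are group means and bars run from the lowest to the highest library. SLC7A5 stands highest in each of these groups, and the 3 lowest genes (SLC6A9, SLC43A1, SLC1A4) are those with the largest rise at high Glycyrrhizae dose.

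Among the 6 extracts with replicate libraries, 8 of the 9 members changed most with the licorice root extract. Between 20 and 500 µg/mL of Glycyrrhizae, transcripts of 8 of the 9 transporters rose, by 1.63- to 4.92-fold, and in each of the 8 every high-dose library lay above every low-dose library. SLC38A2 alone did not pass the test. Over all genes tested, 18.5% rose and 18.4% fell in this comparison. The members were chosen with earlier results of these data known, so this contrast with all genes is a description. The share of all genes whose groups did not overlap was not counted, so counts without overlap describe the libraries and are no result about the members. With Poria, where 2 members were called, 5 were higher and 1 lower without overlap. With Glycyrrhizae no member fell by edgeR or by DESeq2. SLC38A2 was lower at an unadjusted p under 0.05, for which no share of all genes was counted. The members' median change was 1.11 and that of all genes tested 0.0016.

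Among the carriers of small neutral amino acids, SLC1A4 had the largest change. Its libraries read 6.04, 6.76 and 6.50 CPM at low dose, 7.04, 8.31 and 7.12 at medium dose and 31.2, 30.6 and 33.3 at high dose, against 6.80, 5.78 and 5.49 in the vehicle. All 3 high-dose libraries stood apart from the other 9. SLC1A4 rose by 2.30 ± 0.09 from low to high dose (mean ± SD of 31.7 ± 1.42 against 6.44 ± 0.363 CPM with n = 3 in each; edgeR adjusted p = 9.81e-25).

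SLC1A5, the glutamine carrier of the same family, read 242, 258 and 241 CPM at low dose, 259, 274 and 249 at medium dose and 422, 441 and 441 at high dose. Its vehicle libraries, at 279, 297 and 273 CPM, were above the low-dose ones. It rose by 0.82 ± 0.05 from low to high dose (edgeR adjusted p = 1.15e-17).

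The 2 SNAT carriers parted. SLC38A1 read 244, 250.2 and 238 CPM at low dose and 399, 397 and 396 at high dose, with no overlap, and rose by 0.70 ± 0.04 (edgeR adjusted p = 2.26e-20). SLC38A2, known for its induction when cells are starved of amino acids, read 296, 326 and 299 CPM at low dose, 260.4, 304 and 291 at medium dose and 271, 297 and 285 at high dose. These 3 groups overlapped. The high-dose mean was 284 ± 13.2 and the low-dose mean 307 ± 16.7 CPM, a change of -0.11 ± 0.05 (edgeR adjusted p = 0.0844), and without high-dose replicate 2 the change was -0.14 with an adjusted p of 0.0469.

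For the leucine-importing heterodimer, SLC7A5 read 1188, 1041 and 1082 CPM at low dose, 1387, 1277 and 1173 at medium dose and 2489, 2421 and 2243 at high dose. Medium and low dose overlapped, and high dose stood apart from both. SLC7A5 rose by 1.11 ± 0.05 from low to high dose (2385 ± 127 against 1104 ± 75.6 CPM; edgeR adjusted p = 8.26e-22). Its partner SLC3A2 read 274, 301 and 264 CPM at low dose, 308, 346 and 307 at medium dose and 471, 487 and 513 at high dose, and rose by 0.81 ± 0.07 (edgeR adjusted p = 1.74e-13). The other leucine carrier, SLC43A1, read 3.89, 3.79 and 4.36 CPM at low dose and 14.0, 12.9 and 13.6 at high dose. It rose by 1.75 ± 0.10 (edgeR adjusted p = 1.82e-18).

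SLC7A1, which carries arginine, lysine and ornithine, read 55.7, 51.0 and 53.9 CPM at low dose, 59.4, 54.0 and 48.6 at medium dose and 135, 132 and 125 at high dose. The low and medium libraries overlapped, and the rise to high dose was 1.29 ± 0.05 (edgeR adjusted p = 1.16e-24). SLC6A9, which takes up glycine with sodium and chloride, read 7.74, 5.64 and 6.57 CPM at low dose, 7.04, 6.30 and 4.92 at medium dose and 28.5, 27.0 and 25.1 at high dose. Its rise was 2.01 ± 0.09 (edgeR adjusted p = 6.66e-23).

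**Figure D2:**
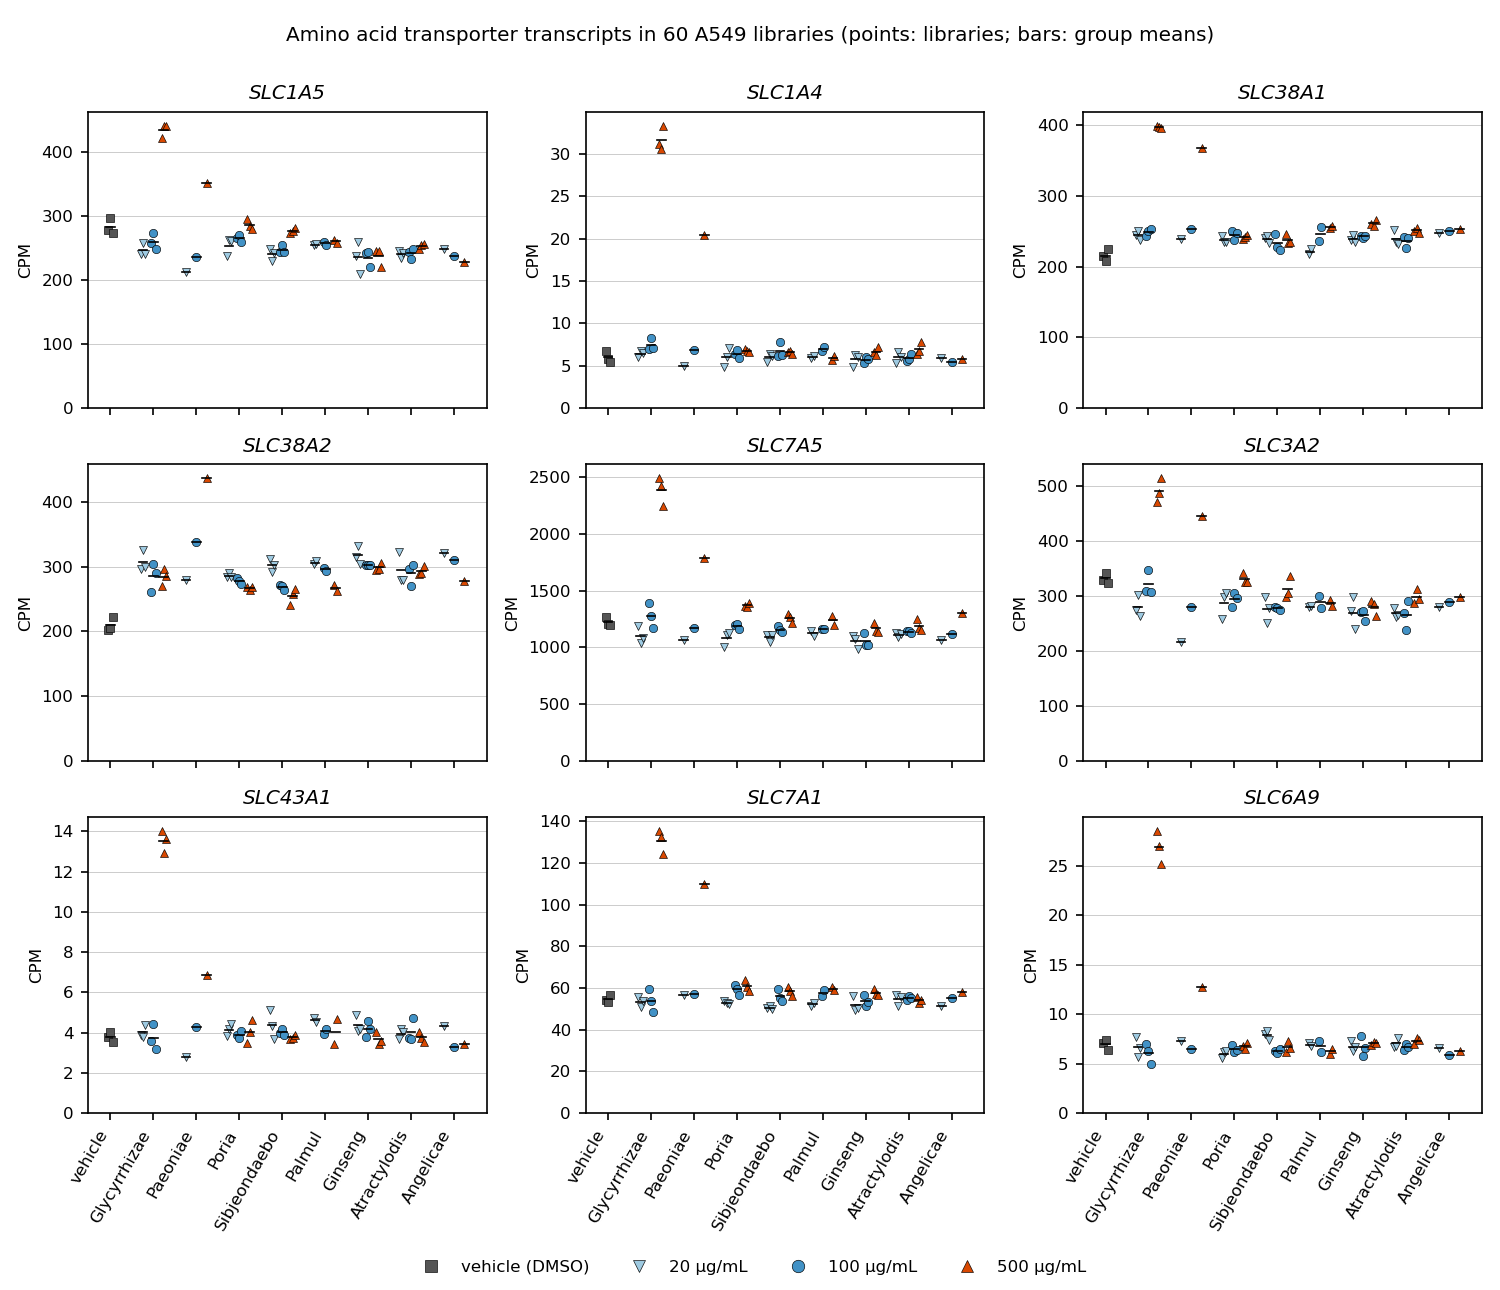
Level of each gene in CPM in the 60 libraries, by extract and dose (points are libraries, short bars group means, axes start at 0). The high-dose Glycyrrhizae libraries are above all others for 8 genes, and for SLC38A2 the single high-dose Paeoniae library is the highest while the 3 vehicle libraries are the lowest.

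The rise lay between the upper 2 doses. From medium to high Glycyrrhizae dose the same 8 genes rose (18.0% of all genes rose), by 0.61 ± 0.07 (SLC3A2) to 2.14 ± 0.09 (SLC6A9). SLC38A2 changed by -0.0042 ± 0.0506 there. From low to medium dose only SLC7A5 was called, with a rise of 0.21 ± 0.05 (edgeR adjusted p = 0.034), against 0.180% of all genes that rose. Its medium and low libraries overlapped. The call was lost without low replicate 2 (adjusted p = 0.222), low replicate 3 (0.237), medium replicate 1 (0.248) or medium replicate 2 (0.116), and in a fit of only the compared groups (adjusted p = 1). SLC1A4 (0.22 ± 0.10, edgeR adjusted p = 0.614) and SLC3A2 (0.20 ± 0.07, adjusted p = 0.284) had medium libraries all above the low ones without passing the test.

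Against the vehicle, all 9 members rose at high Glycyrrhizae dose (23.2% of all genes rose). Changes ran from 0.44 ± 0.05 for SLC38A2 to 2.39 ± 0.10 for SLC1A4. The vehicle libraries of SLC38A2 read 203, 205 and 223 CPM and were below all 57 libraries with extract. The lowest extract group for it was high-dose Sibjeondaebo-tang at 254.8 ± 13.0 CPM. SLC38A1 showed the same order more weakly, with 3 of 57 libraries with extract below its highest vehicle library (225 CPM). SLC1A5 and SLC3A2 were the other way round, with 53 and 52 of 57 libraries with extract below the highest vehicle library. The vehicle libraries carry sample codes of their own, so a difference between sets of codes and one between vehicle and extract cannot be told apart here, and low dose against vehicle was not tested.

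Whether the Glycyrrhizae rise differed from that of other extracts was tested as the difference of the high against low changes. Glycyrrhizae was put in all 5 comparisons with its large change in earlier results of these data known. All 5 use the same Glycyrrhizae libraries, so the differences are not independent of each other or of the rise above. For each of the 5 other replicated extracts the change of the same 8 members was larger with Glycyrrhizae. In these 5 comparisons 9.72% (Ginseng), 11.3% (Sibjeondaebo-tang), 9.69% (Palmul-tang), 11.1% (Poria) and 11.3% (Atractylodis) of all genes differed in that direction. The smallest of the 40 differences was 0.49 ± 0.06 (SLC38A1 against Palmul-tang, edgeR adjusted p = 8.43e-09). The largest was 2.31 ± 0.17 (SLC1A4 against Palmul-tang, edgeR adjusted p = 3.45e-15). For SLC38A2 no difference passed the test, with values from -0.11 ± 0.07 (Atractylodis) to 0.14 ± 0.07 (Sibjeondaebo-tang, edgeR adjusted p = 0.171). By DESeq2 the count was also 0 of 5, and at an unadjusted p under 0.05 it was 0 of 5.

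**Figure D3:**
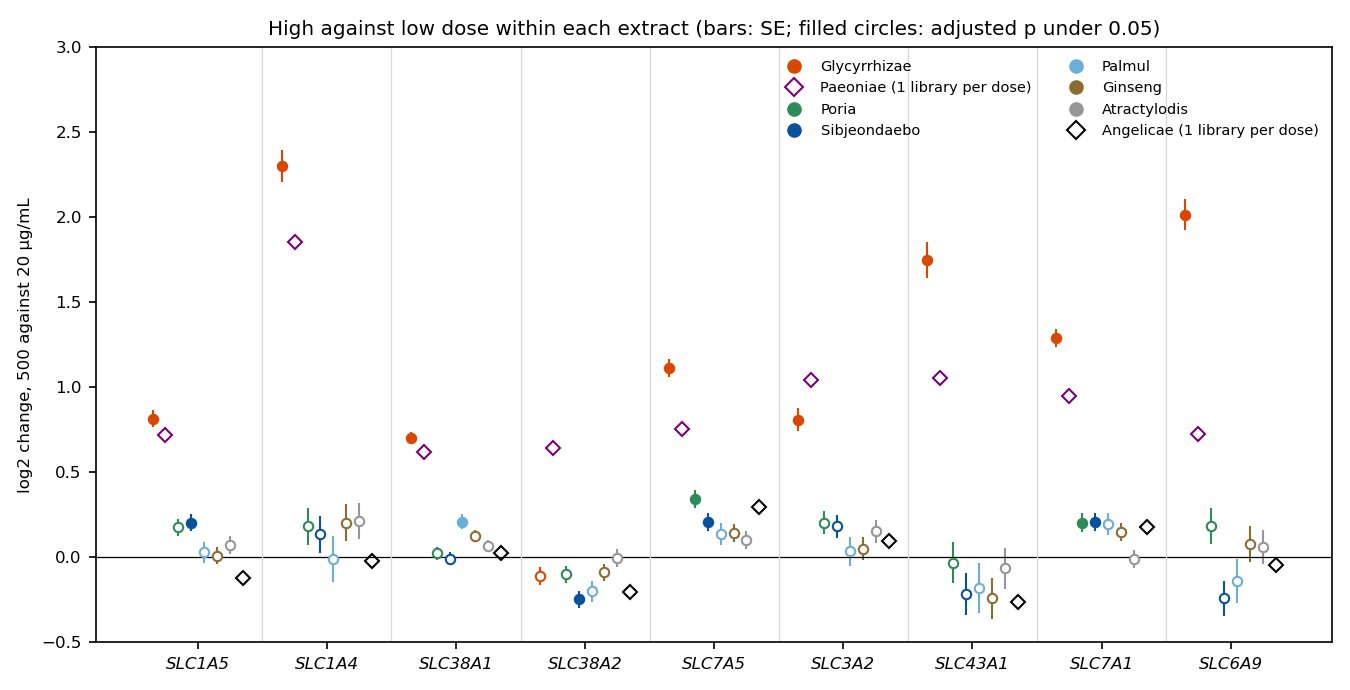
Log2 change from 20 to 500 µg/mL for each gene and extract. Circles are fitted changes with SE (filled where the adjusted p was under 0.05) and open diamonds are log2 ratios of CPM plus 1 for the extracts with 1 library per dose. Glycyrrhizae lies above the other tested extracts for every gene but SLC38A2, where its value is -0.11.

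With the other tested extracts few members were called, and none of these changes was above 0.34 in size. With Poria, SLC7A5 read 1004, 1110.4 and 1128 CPM at low dose and 1362, 1358 and 1391 at high dose, with no overlap. It rose by 0.34 ± 0.05 (edgeR adjusted p = 1.00e-04). SLC7A1 rose as well (0.20 ± 0.05, edgeR adjusted p = 0.0336), and this made 2 of 9 members against 1.06% of all genes that rose and 0.484% that fell. The SLC7A1 call was lost on leaving out any of 5 of the 6 libraries, high replicates 1 and 2 and low replicates 1, 2 and 3 (adjusted p = 0.0799 to 0.235), and in a fit of only the compared groups (0.081). With no filter on low counts SLC7A1 was not called (0.0521) and SLC3A2 was (0.21, adjusted p = 0.0243). SLC1A5 (0.18, edgeR adjusted p = 0.0694) was called by DESeq2 (0.18, adjusted p = 0.0186).

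With Sibjeondaebo-tang 3 of 9 members rose, against 2.35% of all genes. SLC1A5 read 249, 230.0 and 243 CPM at low dose and 273, 277 and 281 at high dose and rose by 0.20 ± 0.05 (edgeR adjusted p = 0.014). SLC7A5 (0.21 ± 0.05, adjusted p = 0.0142) and SLC7A1 (0.21 ± 0.05, adjusted p = 0.0165) rose by as much. None of these 3 calls held in a fit of only the compared groups (adjusted p = 0.0544 to 0.0811). SLC1A5 lost its call without high replicate 3 or low replicate 2, SLC7A5 without high replicates 1 or 2 or low replicate 2, and SLC7A1 without high replicates 1 or 2 or low replicates 1 or 3, with adjusted p from 0.0517 to 0.114. SLC38A2 fell (1 of 9, against 1.44% of all genes). It read 312, 292 and 303 CPM at low dose and 241, 258 and 266 at high dose, with no overlap, a change of -0.25 ± 0.05 (edgeR adjusted p = 0.00175).

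With Palmul-tang, SLC38A1 rose (1 of 9, against 1.29% of all genes). Its 2 low-dose libraries read 218 and 225 CPM and its 2 high-dose libraries 254 and 257, a change of 0.21 ± 0.05 (edgeR adjusted p = 0.00525). The call was lost without low replicate 2 (adjusted p = 0.143) or high replicate 3 (0.0821), and with no filter on low counts (0.0929). SLC38A2 was lower in both high-dose libraries (271 and 262 against 304 and 309 CPM), with a change of -0.20 ± 0.06 that was not called, against 0.794% of all genes that fell (edgeR adjusted p = 0.0863; 0.0362 by DESeq2). With Ginseng (0.552% of all genes rose and 0.653% fell) and Atractylodis (0.113% and 0.0957%) 0 of 9 members were called by edgeR. With Ginseng, 3 members were higher at an unadjusted p under 0.05 and DESeq2 called 1 (SLC38A1, 0.12, adjusted p = 0.0373), and with Atractylodis 1 was higher (SLC3A2) and DESeq2 called 0. From low to medium dose of these 5 extracts no member was called by edgeR or DESeq2. At an unadjusted p under 0.05 there were 0 (Ginseng, Atractylodis), 2 (Palmul-tang, Poria) and 3 (Sibjeondaebo-tang). Of all genes, 0.0507% rose and 0.0281% fell for Sibjeondaebo-tang at an adjusted p under 0.05. For Ginseng, Palmul-tang, Poria and Atractylodis 0% were called. All these shares are at the adjusted threshold. The share of all genes at an unadjusted p was not counted, so the unadjusted counts of members have none beside them.

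Paeoniae, the peony root extract, had 1 library per dose, so its values have no replicate check. All 9 members were past 1.5-fold higher at high than at low dose in the ratio of CPM plus 1, against 11.5% of 14240 genes. The low-dose library, the base of these ratios, was the lowest group for SLC1A4, SLC1A5, SLC3A2 and SLC43A1. For SLC3A2 and SLC43A1 it was the lowest of all 60 libraries. A low base raises a ratio, and ratios of high to medium dose were not counted. SLC1A4 read 4.94, 6.83 and 20.4 CPM at low, medium and high dose, a ratio of 3.61. SLC43A1 (2.79, 4.27 and 6.88 CPM) and SLC3A2 (215, 279 and 445 CPM) had ratios of 2.08 and 2.06. SLC7A1 read 56.4, 57.0 and 110.0 CPM, a ratio of 1.93. The other 5 members had ratios from 1.53 (SLC38A1) to 1.69 (SLC7A5), and SLC6A9 (7.29, 6.49 and 12.7 CPM) was past 1.5-fold with 1 CPM added but at 1.44 with 5 CPM added.

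SLC38A2 is where the 2 extracts with large changes parted. It read 279.7, 337 and 436 CPM over the 3 Paeoniae doses, and the last is the highest of all 60 libraries, while high-dose Glycyrrhizae lay inside the range of the other groups. For the other 8 members the Paeoniae high-dose library was above all 56 libraries outside the high-dose Glycyrrhizae and Paeoniae groups and below every high-dose Glycyrrhizae library. This difference between extracts was not tested, and the share of all genes with this order of libraries was not counted. Low- and high-dose Paeoniae libraries also had the largest mitochondrial shares, given above, and the part of this in the ratios was not tested.

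Angelicae, also with 1 library per dose, moved no member past 1.5-fold (0.386% of 13985 genes were higher and 0.400% lower). SLC7A5 had the largest ratio, 1.23 (1061, 1115 and 1305 CPM), and SLC43A1 the smallest, 0.832 (4.32, 3.28 and 3.43 CPM).

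Other amino acid transporters were split with Glycyrrhizae. Of 26 listed, 18 were tested, 4 rose and 6 fell from low to high dose (against 18.5% and 18.4% of all genes), with a median change of -0.08. The largest rise was that of SLC7A11 (xCT), the cystine-glutamate exchanger that like SLC7A5 pairs with SLC3A2, at 1.25 ± 0.06 (319 ± 14.5 against 135 ± 11.4 CPM, n = 3 and 3; edgeR adjusted p = 8.50e-21). The taurine carrier SLC6A6 rose by 0.49 ± 0.05, and the lysosomal carriers SLC38A9 (0.23 ± 0.07) and SLC36A1 (0.21 ± 0.07) rose slightly. Falling members included SLC7A7, another partner of SLC3A2 that exports cationic amino acids, at -0.57 ± 0.05 (138 ± 0.435 against 206 ± 7.54 CPM). SLC43A2 (LAT4), the close relative of SLC43A1, changed by -0.58 ± 0.07, and SLC7A2, a relative of SLC7A1, by -0.53 ± 0.07. So within the SLC3A2 partners measured, SLC7A5 and SLC7A11 rose, SLC7A6 (-0.32 ± 0.05) and SLC7A7 fell and SLC7A8 (0.19 ± 0.11, edgeR adjusted p = 0.189) was not called. With Paeoniae 3 of 16 of these other transporters at 1 CPM or more were past 1.5-fold higher and 2 lower, against 11.5% of all genes in each direction. SLC7A7, which fell with Glycyrrhizae, was higher there (182, 209 and 299.6 CPM), as was SLC7A11 (128, 142 and 223 CPM).

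Genes of the amino acid response moved with the members. Of 18 listed, 11 rose and 1 fell from low to high Glycyrrhizae dose (18.5% and 18.4% of all genes), with a median change of 1.09. ATF4 rose by 1.07 ± 0.05 (388 ± 5.01 against 185 ± 8.16 CPM; edgeR adjusted p = 2.98e-22). Its targets ASNS, asparagine synthetase (2.82 ± 0.05), CHAC1, which degrades glutathione (3.42 ± 0.12), and the stress transcription factors ATF3 (2.84 ± 0.19) and DDIT3 (2.14 ± 0.09) rose further. Of the 4 eIF2α kinases, EIF2AK4 (GCN2), which senses uncharged transfer RNA, fell by 0.17 ± 0.05, and EIF2AK1, EIF2AK2 and EIF2AK3 changed by 0.02 ± 0.06, -0.0019 ± 0.0387 and 0.04 ± 0.04 without passing the test. In the Paeoniae libraries 11 of 18 were past 1.5-fold higher and 0 lower, among them ASNS (32.6, 32.7 and 89.0 CPM) and ATF4 (191, 189 and 349 CPM). With Ginseng ASNS (0.24 ± 0.05, edgeR adjusted p = 0.00985) and CHAC1 (0.55 ± 0.15, adjusted p = 0.0471) were among 3 of 18 that rose, against 0.552% of all genes.

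Genes that sense amino acids for mTORC1 were split. Of 23 listed, 7 rose and 4 fell with high Glycyrrhizae dose, against 18.5% and 18.4% of all genes, with a median change of -0.04. RRAGD, a Rag GTPase, rose by 0.91 ± 0.13 and DDIT4, an inhibitor of mTORC1, by 0.51 ± 0.07, followed by FLCN (0.32 ± 0.08), which activates the Rag GTPases, and MLST8 (0.29 ± 0.07), a subunit of the complex. MTOR itself changed by -0.18 ± 0.05 and CASTOR2, a relative of the arginine sensor CASTOR1, by -0.47 ± 0.11, both falls past the test.

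Genes that use glutamine and glycine, the cargo of several members, were also split, with 5 rising and 6 falling of 12 tested of 13 listed (median -0.12; 18.5% and 18.4% of all genes rose and fell). GPT2, which passes nitrogen from glutamate to alanine, rose by 1.10 ± 0.07, and the mitochondrial serine-glycine enzyme SHMT2 by 0.95 ± 0.04 (302 ± 7.77 against 157 ± 1.75 CPM). Its cytosolic counterpart SHMT1 changed by -0.72 ± 0.04 (136 ± 1.79 against 225 ± 4.93 CPM), and GLDC, which cleaves glycine, by -1.03 ± 0.05. GCLM and GSS of glutathione synthesis rose by 0.60 ± 0.04 and 0.30 ± 0.04, and glutamine synthetase, GLUL, changed by -0.34 ± 0.04, a fall past the test.

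**Figure D4:**
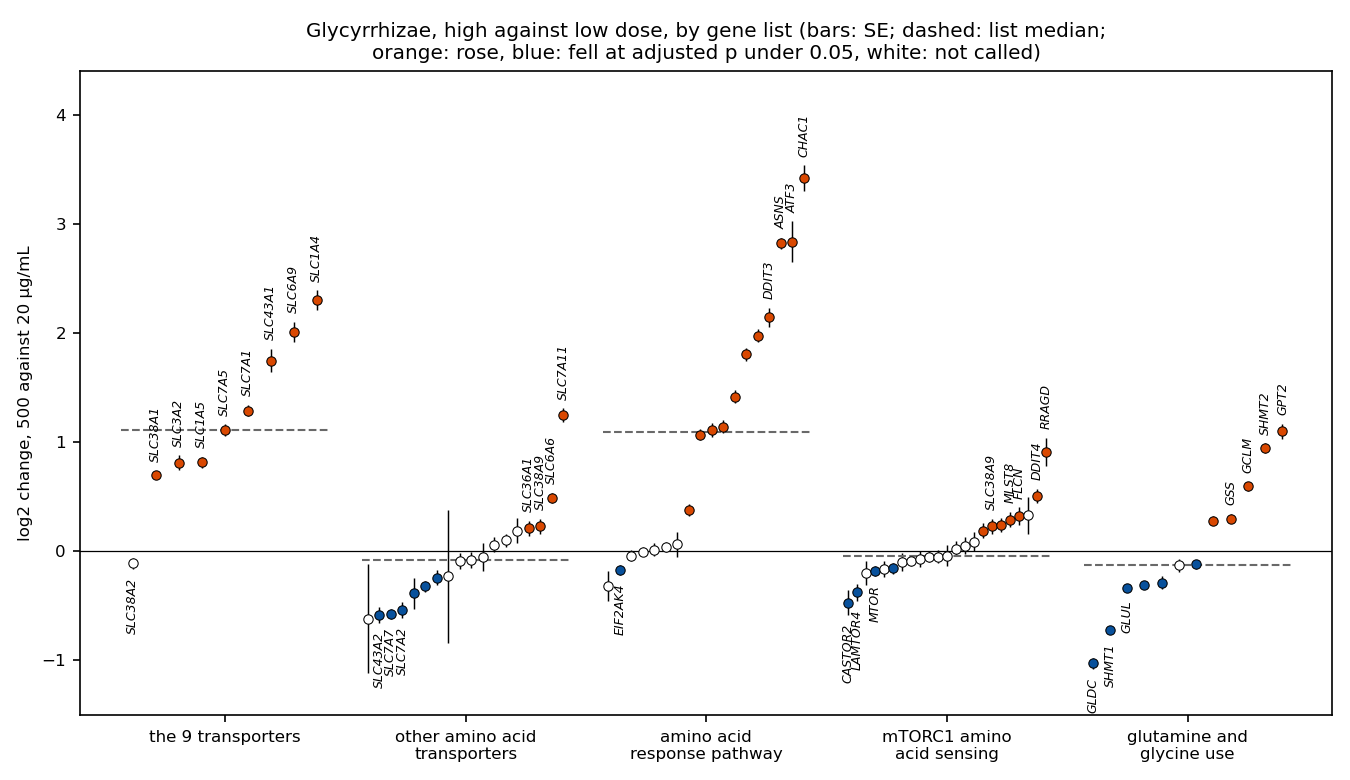
Log2 change (± SE) from low to high Glycyrrhizae dose of every tested gene in 5 lists, with each list's median as a dashed line. The 9 transporters and the amino acid response genes have medians of 1.11 and 1.09, and the other 3 lists have medians near 0.

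Cell markers shifted in the same comparison. Of the 10 epithelial and A549 markers 2 rose and 7 fell, against 18.5% and 18.4% of all genes. The 2 rises are near the first share. The summed level of these markers was 14167 to 14438 CPM at high and 16920 to 17156 at low Glycyrrhizae dose. Of the 12 markers of other cell types 6 were tested, to be set against the same shares of all genes. Among them 1 rose (CD68, a lysosomal protein abundant in macrophages, 66.8 ± 7.88 against 19.7 ± 3.49 CPM) and 2 fell (COL3A1 and DCN). The 1 rise is near the share of all genes. The sum of the 12 ran from 70.3 to 85.7 CPM at high and from 33.0 to 37.4 at low dose, and was 69.3 in the high-dose Paeoniae library. The leukocyte marker PTPRC was at 0 in 53 of 60 libraries, and the part of these shifts in the members' changes was not tested. In bulk RNA fewer cells of a type and less RNA per cell cannot be told apart.

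Across the 25 group means the members resembled each other except SLC38A2. Pearson's r of log2(CPM + 1) between pairs of the other 8 ran from 0.773 (SLC3A2 and SLC6A9) to 0.964 (SLC1A4 and SLC7A1), and r of SLC38A2 with them from 0.089 (SLC1A5) to 0.50 (SLC38A1). These are descriptions, since the groups share extracts, sample sets and doses and a few groups set the range. Without the 3 Glycyrrhizae groups the first range became 0.544 to 0.935 over 22 groups and the second 0.197 to 0.769. These 22 groups still hold the single high-dose Paeoniae library, the highest of them for every member. Values of r without that library were not computed.

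Among the 10834 genes that averaged 5 CPM or more, the gene most like SLC1A4 over the 25 groups was MTHFD2, a mitochondrial folate enzyme (r = 0.982), and MTHFD2 was also most like SLC7A5 (r = 0.956). For SLC7A1 it was the secreted glycoprotein STC2 (r = 0.981), with ATF4 also among its nearest genes (r = 0.974). SLC1A5 and SLC3A2 were each other's nearest gene (r = 0.950). SLC38A1 was nearest to MORC4 (r = 0.976), SLC6A9 to PHLDA1 (r = 0.969) and SLC38A2 to the tyrosine kinase gene FER (r = 0.941). SLC43A1, below 5 CPM on average, was not searched.

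On GRCh38 (GENCODE 29) each member is a protein-coding gene and its value is the count over all of its exons. SLC38A1 (chromosome 12, 46183063 to 46270017) and SLC38A2 (chromosome 12, 46358189 to 46372867) are near each other on the minus strand, and SLC3A2 (62856102 to 62888875) and SLC43A1 (57484534 to 57515786) are both on chromosome 11. SLC1A4 is at 64988477 to 65023865 on chromosome 2, SLC6A9 at 43991500 to 44031467 on chromosome 1, SLC7A1 at 29509410 to 29595688 on chromosome 13, SLC7A5 at 87830023 to 87869488 on chromosome 16 and SLC1A5 at 46774883 to 46788594 on chromosome 19. SLC6A9 overlaps CCDC24 on the opposite strand. The strand setting of the counting is not given in the sources used here, so reads of the overlap could be split either way. CCDC24 (5.31 against 4.75 CPM) was not called between high and low Glycyrrhizae dose. The SLC7A5 pseudogenes SLC7A5P1 and SLC7A5P2 had a mean of 7.6 and 2.05 counts per library, while SLC7A5 had 21269 to 65666.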

How the data were processed

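The authors deposited RSEM expected counts per gene (60675 identifiers in 270 columns), made, per the submitters' processing notes, with FastQC 0.11.9, Trim Galore 0.6.5, STAR 2.7.3a (alignment) and RSEM 1.3.3 (quantification) on GRCh38. No annotation release or strand setting is given in the sources used here. Values came from the 60 columns that match the labels, and 210 others were left aside. Of the values above 0, 76.0% were whole within 1e-09, and all were rounded.

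Totals were 18602484 to 29764358 counts. Symbols came from matched identifiers (41706 of 60675) and GENCODE 29. With edgeR 4.0.16 (R 4.3.3), 17765 genes passed filterByExpr. After TMM scaling a model with a mean for every group was fitted over the 60 libraries (glmQLFit, 35 residual degrees of freedom, common biological coefficient of variation 5.59%). There were 19 comparisons, each adjusted over all genes at 0.05. SEs were obtained as the size of the log2 change over the root of F. Replicate pairs (51) differed by a chi-square of 2.72 to 40.3 per degree of freedom, beyond sampling noise in every pair. For extracts with 1 library per dose, ratios of CPM plus 1 past 1.5-fold were counted among genes at 1 CPM or more in any dose. The fit was tested on simulated data.

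The members and lists, and Glycyrrhizae as the extract compared in most detail, were chosen with earlier results of these data known. Named were all members, and from each other list the 4 called genes with the largest rise and the 3 with the largest fall at 1 CPM or more in either group, and for likeness the 3 nearest genes, of which some are printed. ATF4, EIF2AK1, EIF2AK2, EIF2AK3, SLC7A6 and SLC7A8 fall outside this rule, their values having been seen before they were named, as do the overlapping gene and the Paeoniae values of list genes.

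Same-numbered libraries deviated together in every pair (correlation above 0.1) for Glycyrrhizae medium and low (0.273, 0.421 and 0.134), Glycyrrhizae high and medium (0.284, 0.140 and 0.116) and Ginseng medium and low (0.180, 0.194 and 0.234), and between extracts for low Glycyrrhizae with low (0.109, 0.417 and 0.318) and high Ginseng (0.119, 0.165 and 0.154) and for high Glycyrrhizae with high Sibjeondaebo-tang (0.255, 0.111 and 0.214), judged from the data alone, since the labels do not say what a number marks. Alternatives were RLE size factors, DESeq2 1.42.0, no filter, only the compared groups, a replicate block, leaving out each library, and other pseudocounts. Some results on named items are not reported here.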

Additional observations from a re-analysis of the deposited data

Results flagged for a closer look

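Each value here is a difference between extracts in the log2 change from low to high dose, Glycyrrhizae minus another extract, tested as an interaction in the edgeR model and past an adjusted p of 0.05. Values are in the order Ginseng, Sibjeondaebo-tang, Palmul-tang, Poria and Atractylodis, and in all 40 the change was larger with Glycyrrhizae. That extract was chosen with its large change in earlier results known, and all 40 use its libraries, so they are not independent. For SLC1A4, the alanine, serine and cysteine carrier, they were 2.10, 2.17, 2.31, 2.12 and 2.09. SLC6A9, the glycine carrier, had differences of 1.94, 2.25, 2.15, 1.83 and 1.95. Those of SLC43A1, the leucine carrier LAT3, were 1.99, 1.96, 1.93, 1.78 and 1.81. SLC7A1, the arginine and lysine carrier, differed by 1.14, 1.08, 1.09, 1.08 and 1.297. For the heterodimer of SLC7A5 and SLC3A2 the differences were 0.97, 0.90, 0.97, 0.77 and 1.01 in the first subunit and 0.76, 0.63, 0.78, 0.61 and 0.66 in the second. The glutamine carriers SLC1A5 and SLC38A1 had 0.81, 0.61, 0.79, 0.64 and 0.74 and 0.58, 0.71, 0.49, 0.68 and 0.63. The 3 genes with the lowest levels, SLC1A4, SLC6A9 and SLC43A1, had differences of 1.78 or more throughout, and the other 5 had differences from 0.49 to 1.297.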

How the results depend on the processing

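The 8 Glycyrrhizae rises from low to high dose, the same 8 from medium to high, the 9 against the vehicle and the 40 differences between extracts kept their direction and side of the threshold under every alternative run. Of 2121 member values under alternatives 2081 stayed on their side of the threshold, in 65 of them with another sign where neither value was called, 27 lost a call, 12 gained one and none reversed a call. The exception without a test was SLC6A9 with Paeoniae, whose log2 ratio was 0.53 with 5 CPM added, under 1.5-fold.

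The other member counts were less stable, and the causes were not tested. With no filter on low counts 0 members rose for Palmul-tang. By DESeq2 1 rose for Ginseng, 3 rose for Poria (2 in the full fit; SLC1A5 was gained) and 1 fell for Palmul-tang. Fitting only the groups compared left 0 rising for Sibjeondaebo-tang, 1 for Poria and 0 for Glycyrrhizae medium against low, with 1 falling for Palmul-tang. Leaving out 1 library gave 1 to 2 rising for Sibjeondaebo-tang (3 in the full fit), 0 to 1 for Palmul-tang, 1 to 2 for Poria, 0 to 1 for Glycyrrhizae medium against low, and 0 to 1 falling for Glycyrrhizae high against low. Groups left with 1 library are assumed to vary like the others.

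With the replicate number as a block, 1 member fell for Glycyrrhizae high against low (SLC38A2, -0.11, edgeR adjusted p = 0.0498), 2 rose for Ginseng (SLC7A5, adjusted p = 0.0450, and SLC38A1, 0.0357), SLC1A5 was gained for Poria (adjusted p = 0.0180), and 2 rose and 1 fell for Palmul-tang. The block made 343 (Ginseng), 1018 (Sibjeondaebo-tang), 591 (Palmul-tang), 474 (Poria) and 93 (Atractylodis) genes called from low to high dose, and 24 (Sibjeondaebo-tang) and 1 (Poria) from low to medium. In the comparisons where every same-numbered correlation was above 0.1 the block changed no member call. High and low Ginseng, where the block gained SLC7A5 and SLC38A1, had correlations of 0.0921, 0.150 and 0.193. Other cuts were not tried, so whether pairing bears on the member calls is not settled by this.

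Counts of all genes called moved as well. From low to high dose they were 214 (Ginseng), 672 (Sibjeondaebo-tang), 370 (Palmul-tang), 275 (Poria) and 37 (Atractylodis), and from low to medium 140 (Glycyrrhizae), 14 (Sibjeondaebo-tang) and 0 for the other four. With no filter they became 213 for Atractylodis high, and for medium dose 44 (Ginseng), 85 (Sibjeondaebo-tang), 63 (Palmul-tang), 60 (Poria) and 51 (Atractylodis). DESeq2 gave 67 for Atractylodis high, and 3 (Ginseng) and 4 (Palmul-tang) for medium. Only the groups compared gave 13 (Ginseng), 268 (Sibjeondaebo-tang), 108 (Poria) and 19 (Atractylodis) for high, and 7 (Glycyrrhizae), 7 (Sibjeondaebo-tang) and 4 (Palmul-tang) for medium. Leaving out 1 library gave, for high, 92 to 246 (Ginseng), 381 to 503 (Sibjeondaebo-tang), 106 to 169 (Palmul-tang), 143 to 192 (Poria) and 13 to 31 (Atractylodis), and for medium 65 to 148 (Glycyrrhizae), 0 to 2 (Ginseng), 1 to 3 (Sibjeondaebo-tang) and 0 to 2 (Poria).

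Depth limits SLC43A1, SLC1A4 and SLC6A9 most, with medians of 98, 158 and 164 counts per library. In the Paeoniae and Angelicae libraries no spread between replicates is known.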

Other observations

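Several list genes outside the members moved with extracts that called few or no members. SHMT1, the cytosolic serine-glycine enzyme, fell from low to high dose with Ginseng (-0.18 ± 0.04, edgeR adjusted p = 0.00345) and Palmul-tang (-0.18 ± 0.04, adjusted p = 0.015) as it did with Glycyrrhizae. GCLM, the modifier subunit of the enzyme that starts glutathione synthesis, rose with Poria (0.27 ± 0.04, edgeR adjusted p = 1.49e-04) and Atractylodis (0.21 ± 0.04, adjusted p = 0.0134). SLC7A7, which exports cationic amino acids with SLC3A2, fell with Ginseng (-0.20 ± 0.05, edgeR adjusted p = 0.0187) and Palmul-tang (-0.22 ± 0.06, adjusted p = 0.0412). ASNS rose with Palmul-tang by 0.23 ± 0.07 (edgeR adjusted p = 0.0488). For these genes the differences from the Glycyrrhizae change were tested but are not given here. Differences among the other extracts were not tested.

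In the Paeoniae libraries, with 1 per dose, SLC7A8 read 14.1, 11.9 and 6.48 CPM and SLC38A6 16.1, 16.4 and 7.18 CPM from low to high dose, both past 1.5-fold lower, while with Glycyrrhizae neither was called. EIF2AK3 (PERK), the eIF2α kinase of the endoplasmic reticulum, read 27.4, 31.5 and 60.4 CPM with Paeoniae and 30.2 ± 1.04 at high against 29.3 ± 0.0955 CPM at low Glycyrrhizae dose (mean ± SD, n = 3 and 3). These list genes were chosen after their values were seen.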
